A study of Rattus norvegicus with 91 samples.

Results

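The respiratory chain subunits are nuclear-encoded proteins of the 5 complexes of the inner mitochondrial membrane, and their mRNAs were followed in the ventral tegmental area of rats bred for high or low alcohol consumption. Members were the probe sets whose platform annotation gave exactly 1 gene symbol starting with Ndufa, Ndufb, Ndufc, Ndufs, Ndufv, Sdha to Sdhd, Uqcr, Cyc1, Cox4 to Cox8 or Atp5, without the assembly factors named Ndufaf and Sdhaf. This gave 90 of 20826 single-symbol probe sets, for 81 genes: 39 probe sets for complex I, 5 for complex II, 9 for complex III, 17 for complex IV and 20 for complex V. The rule works by name, so it counts Ndufa4 and Ndufa4l2 with complex I, and with complex IV it counts Cox6c-ps1, which RefSeq lists as a transcribed pseudogene. A further 7 probe sets whose annotation named a subunit together with another gene were outside the rule.

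Each of 91 arrays held RNA of the ventral tegmental area of 1 animal. The animals came from 10 lines in 5 pairs, and the first line of each pair was selected for high alcohol preference: HAD1 (8 arrays) and LAD1 (10), HAD2 (8) and LAD2 (9), P (9) and NP (10), AA (10) and ANA (10), sP (8) and sNP (9). No group carried a transgene or a treatment in the labels, and the labels used here do not state the animals' age or alcohol history. Each pair is a comparison of 1 selected line with 1 other, so a difference within a pair cannot be told apart from chance fixation during breeding.

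Values are log2 signals, and only differences within a pair were compared, because the arrays of different pairs fell into different technical sets. Clustering of the value distributions, cut at 5, placed all arrays labelled HAD1, LAD1, HAD2 and LAD2 in the set of their own pair. Of the arrays labelled AA and ANA, AA 1 lay in the set of P and NP, and AA 19 and ANA 20 lay in the set of sP and sNP. In the order of the deposited table the sets held 17, 18, 20, 17 and 19 arrays, while the labels give P/NP 19, AA/ANA 20 and sP/sNP 17. The sizes 20, 17 and 19 are those of AA/ANA, sP/sNP and P/NP in the labels, but in a different order. Whether labels were exchanged was not tested, so results for P/NP, AA/ANA and sP/sNP are for arrays so labelled. The dopamine neuron markers (9 of 11 listed genes tested, mean log2 signal per array) ran from 10.75 to 12.51 on the HAD1, LAD1, HAD2, LAD2, AA, ANA, sP and sNP arrays. They ran from 7.79 (P 10) to 12.28 in P and from 8.54 (NP 8) to 12.07 in NP, and 3 of 9 P arrays and 5 of 10 NP arrays lay below 10.75.

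Complex I (NADH dehydrogenase) and complex II (succinate dehydrogenase) pass electrons to ubiquinone, complex III passes them to cytochrome c, and complex IV reduces oxygen. The proton gradient built by complexes I, III and IV drives the ATP synthase, complex V. Neurons depend on this system for ion pumping and transmitter release. Most of the subunits are encoded in the nucleus, where the factors NRF1 and GABP (an ETS family factor) and YY1 are known regulators of their promoters, and MEF2 factors act on muscle isoforms.

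Promoters of 4 members are shown: that of Ndufc1, the member called in HAD2/LAD2, that of Cox6a2, a muscle isoform with a MEF2 motif, and those of Atp5me and Ndufs6 as examples that each hold 2 kinds of motif of the respiratory chain regulators. Sequences are from RefSeq on the GRCr8 build, from 250 bases before to 50 bases after the gene's start, on the gene's strand, with motif matches in capitals.
Ndufc1 (chr2:137601686-137601985, minus strand): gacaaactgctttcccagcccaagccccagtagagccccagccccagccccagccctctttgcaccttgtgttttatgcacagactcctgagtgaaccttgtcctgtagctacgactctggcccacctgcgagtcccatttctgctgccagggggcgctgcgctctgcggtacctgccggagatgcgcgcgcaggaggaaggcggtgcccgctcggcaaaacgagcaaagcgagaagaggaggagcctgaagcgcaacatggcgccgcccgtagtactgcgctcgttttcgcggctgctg
Cox6a2 (chr1:192219667-192219966, minus strand): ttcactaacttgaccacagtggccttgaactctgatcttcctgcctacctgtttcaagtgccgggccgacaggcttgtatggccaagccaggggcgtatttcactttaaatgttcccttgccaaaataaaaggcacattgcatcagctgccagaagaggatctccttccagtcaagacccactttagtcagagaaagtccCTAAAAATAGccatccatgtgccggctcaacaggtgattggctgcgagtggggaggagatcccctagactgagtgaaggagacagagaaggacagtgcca
Atp5me (chr14:1464610-1464909, plus strand): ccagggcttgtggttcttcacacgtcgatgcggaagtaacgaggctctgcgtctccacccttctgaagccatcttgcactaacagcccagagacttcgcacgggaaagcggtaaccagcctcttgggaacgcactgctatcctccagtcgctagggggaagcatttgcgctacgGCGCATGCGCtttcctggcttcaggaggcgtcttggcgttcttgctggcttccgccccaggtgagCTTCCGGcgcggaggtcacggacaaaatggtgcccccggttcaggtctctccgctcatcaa
Ndufs6 (chr1:31797150-31797449, plus strand): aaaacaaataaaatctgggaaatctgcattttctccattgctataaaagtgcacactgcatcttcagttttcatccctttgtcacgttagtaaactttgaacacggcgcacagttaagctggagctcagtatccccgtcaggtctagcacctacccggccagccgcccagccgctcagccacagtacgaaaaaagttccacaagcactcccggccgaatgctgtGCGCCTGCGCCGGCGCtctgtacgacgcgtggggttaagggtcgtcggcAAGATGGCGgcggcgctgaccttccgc

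Motifs were searched on both strands as GCGC, 2 bases of any kind and GCGC for NRF1, CCGGAAG for GABP, AAGATGGCG for YY1, and CTA, 4 bases of any kind and TAG for MEF2. Of the 81 member genes, 72 had a promoter entry. The NRF1 motif was in 14 of 72 members (19.4%), against 5.58% of all 33469 promoters of the same length and 13.1% of the 9233 promoters of genes tested on the arrays. The GABP motif was in 20 members (27.8%), against 8.75% of all promoters and 17.6% of those of tested genes. The YY1 motif was in 10 members (13.9%), against 1.73% and 3.8%. The MEF2 motif was in 2 members (2.78%), against 3.84% and 2.76%. In Atp5me the NRF1 match GCGCATGCGC started 76 bases before the gene's start, with a GABP match 11 bases before it. Ndufs6 held 2 overlapping NRF1 matches, GCGCCTGCGC and GCGCCGGCGC, and the YY1 motif 24 bases past the start. The window of Cox6a2 held the MEF2 match CTAAAAATAG, 50 bases before the start, and that of Ndufc1 held none of the 4 motifs. A match is a run of letters, not a binding site.

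Of the 90 member probe sets, 86 reached the signal needed for testing, a highest line mean of at least 7.02, which is the 40th percentile of all values. The 4 that did not were those of Cox4i2, Cox6b2 and Cox7b2, which are tissue-restricted complex IV subunits, and 1 of 3 probe sets of Atp5if1, the inhibitor of the ATP synthase. Tests were limma fits of all arrays with Benjamini-Hochberg adjustment over all 15163 tested probe sets, and a probe set was called at an adjusted p under 0.05.

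With the arrays taken as labelled, the subunits differed little between the high and the low line of each pair. None of 86 was called in HAD1/LAD1, where 4.09% of all tested probe sets were called. In HAD2/LAD2, 1 was called, with 5.22% of all tested. None was called in AA/ANA, against 3.17% of all. In P/NP and in sP/sNP neither a member nor any other probe set was called, so the absence of calls there is not particular to the subunits. At an unadjusted p under 0.05 there were 3 members in HAD1/LAD1 (3.49%), 6 in HAD2/LAD2 (6.98%), 1 in P/NP (1.16%), 3 in AA/ANA (3.49%) and 0 in sP/sNP. The shares over all tested probe sets were 12.7%, 14.4%, 5.74%, 13% and 1.13%. Ranges of the 2 lines overlapped for each of the 86 probe sets in all 5 pairs. Few probe sets of all tested had ranges that did not overlap, 0.204% in HAD1/LAD1, 1.6% in HAD2/LAD2, 0.033% in AA/ANA and 0 in P/NP and sP/sNP.

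The differences were small. The median absolute difference of the members was 0.0325 in HAD1/LAD1, 0.0445 in HAD2/LAD2, 0.0223 in P/NP, 0.0263 in AA/ANA and 0.0144 in sP/sNP, on the log2 scale. Over all tested probe sets these medians were 0.0581, 0.062, 0.0489, 0.0573 and 0.0376. The 95% confidence interval of the difference lay within 0.32 of 0 on the log2 scale for 81 of 86 members in HAD1/LAD1, 79 in HAD2/LAD2, 83 in P/NP, 83 in AA/ANA and 84 in sP/sNP. The shares over all tested probe sets were 78%, 76.2%, 82.5%, 80.1% and 85.4%. The median within-line SD of the members was 0.132 against 0.158 over all tested.

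**Figure D1:**
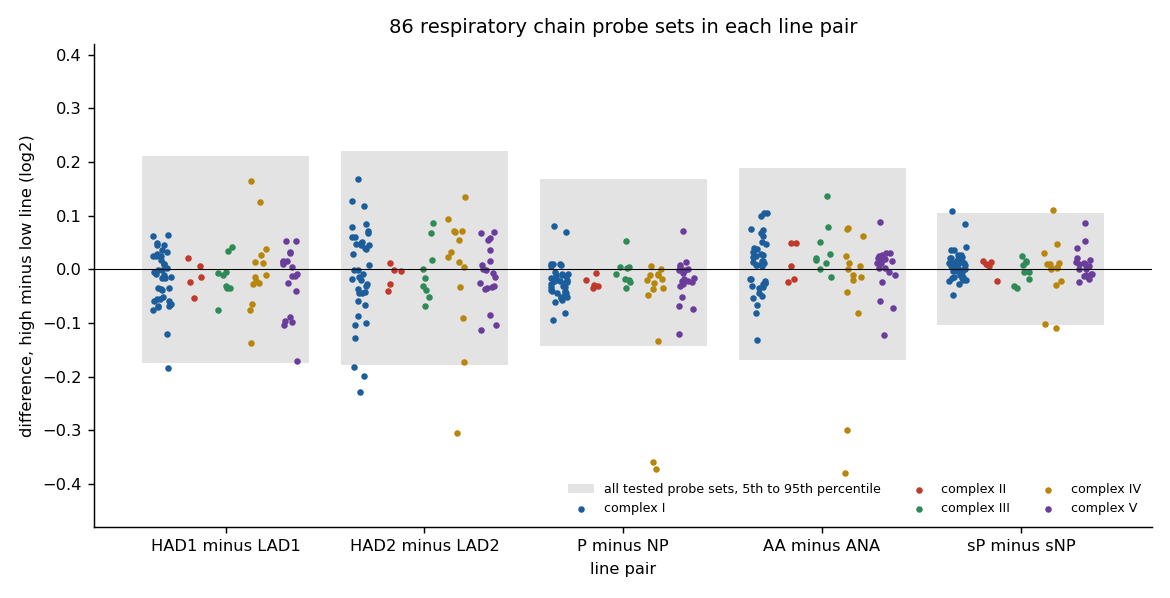
Difference between the high and the low line (log2, vertical axis) of the 86 tested respiratory chain probe sets in each of the 5 pairs, 1 point per probe set coloured by complex, over the 5th to 95th percentile of all 15163 tested probe sets (grey). Most points lie near 0 in every pair; the lowest are complex IV isoforms, such as Cox6a2 at -0.37 in P/NP and Cox8b at -0.38 in AA/ANA.

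Ndufc1, a small accessory subunit in the membrane arm of complex I, was the member called in HAD2/LAD2. Its log2 signal ran from 10.77 to 11.04 in the 8 HAD2 arrays (median 10.87) and from 10.88 to 11.27 in the 9 LAD2 arrays (median 11.09). All 8 HAD2 arrays were below the LAD2 median and 6 LAD2 arrays were above the highest HAD2 array, while the ranges overlapped. Ndufc1 fell by 0.18 ± 0.05 (SE) in HAD2 relative to LAD2, with an adjusted p of 0.00783 (limma, n = 8 and 9), and its 95% confidence interval ran from -0.28 to -0.09. With the 17 arrays of the pair fitted alone the difference was the same and the adjusted p was 0.0968 (SE 0.06), which loses the call. Leaving out each array in turn kept the call, with adjusted p from 0.00209 to 0.0349. In the other 4 pairs the lines overlapped almost fully, as HAD1 (11.1 to 11.36) and LAD1 (11.12 to 11.42) did. The test that its difference depends on the pair gave an adjusted p of 0.333, so Ndufc1 was not shown to behave differently in HAD2/LAD2.

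Other complex I subunits of HAD2/LAD2 came near the threshold without passing it, and Ndufb10 and Ndufa2 are named after their values were seen. Ndufa12, an accessory subunit of the peripheral arm, ran from 11.69 to 12.37 in HAD2 (median 11.89) and from 11.86 to 12.34 in LAD2 (median 12.21), a difference of -0.23 ± 0.08 (SE) with an adjusted p of 0.0605. Ndufb10, a membrane arm subunit, ran from 9.99 to 10.64 in HAD2 and from 10.2 to 10.63 in LAD2, a difference of -0.20 with an adjusted p of 0.0595. Ndufa2 had the opposite sign, with HAD2 from 10.93 to 11.47 and LAD2 from 10.68 to 11.2, a difference of 0.17 and an adjusted p of 0.117. Complex I as a whole was split, with 18 of its 39 probe sets above 0 and 21 below. Quantile normalization over all arrays brought Ndufa12 and Ndufb10 past the threshold, for 3 calls in place of 1. Leaving out any of HAD2 2, HAD2 5, HAD2 9, LAD2 18 or NP 10 also brought Ndufa12 past it, and the lowest adjusted p was 0.00786. RNA of both lines was strongly 3'-biased, with the 3' minus 5' signal of the Gapdh control at 3.42 ± 0.31 (SD, n = 8) in HAD2 and 3.58 ± 0.38 (SD, n = 9) in LAD2. The same measure was 1.9 in HAD1 and 1.78 in LAD1, and from 0.14 (P) to 0.57 (ANA) in the other lines. The part of this bias in the results of either HAD/LAD pair was not tested.

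In HAD1/LAD1 the lowest adjusted p among the members was that of Cox6c, a small subunit of complex IV. Cox6c ran from 14.14 to 14.32 in HAD1 (median 14.24) and from 13.92 to 14.28 in LAD1 (median 14.14), a difference of 0.13 ± 0.04 (SE) with an adjusted p of 0.0765. It passed the threshold without the arrays AA 1, AA 19 and ANA 20 (adjusted p 0.0408), which change only the shared spread, and without HAD1 25, LAD1 37 or LAD1 40 (lowest adjusted p 0.0335). In HAD2/LAD2 Cox6c differed by 0.07, from 13.68 to 13.91 in HAD2 and 13.57 to 13.95 in LAD2.

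Ndufv3, an accessory subunit of the NADH-oxidising module, gave different answers from its 2 probe sets. The dimmer one (1368567_at) ran from 6.99 to 7.34 in HAD1 and from 6.97 to 7.62 in LAD1, a difference of -0.18 with an adjusted p of 0.0928. The array LAD1 37 was the lowest of its line there at 6.97, and without it the difference was -0.23 with an adjusted p of 0.00783. The brighter probe set (1368566_a_at) ran from 9.94 to 10.71 in HAD1 and from 10.06 to 10.45 in LAD1, a difference of 0.06 with an adjusted p of 0.891. The 2 probe sets thus had opposite signs, and the gene cannot be given a direction in this pair.

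In P/NP, AA/ANA and sP/sNP no member of complexes I, II, III or V differed by more than 0.14. The largest of complex I were Ndufv3 (1368567_at, -0.09) in P/NP, Ndufa12 (-0.13, adjusted p 0.432) in AA/ANA and the dim probe set of Ndufa9 (1396282_at, 0.11) in sP/sNP, whose other probe set was at 0.01. In complex III the largest was Uqcrc2 in AA/ANA, at 0.14 from 1 probe set (1382280_at) and 0.02 from the other. In complex V they were Atp5if1 (1371229_at, -0.12) in P/NP, Atp5me (1377191_at, -0.12) in AA/ANA and Atp5po (1370276_at, 0.09) in sP/sNP. Both line means were under the testing level of 7.02 for these probe sets of Atp5if1 (5.6 and 5.72), Atp5me (6.64 and 6.76) and Ndufa9 (6.87 and 6.76), which were tested for their level in other lines. In complex II no member differed by more than 0.05 in any of these 3 pairs. None of these passed the test, and without AA 1, AA 19 and ANA 20 none of the 86 was called in AA/ANA either.

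The average of the 5 pairs and the tests between pairs gave no called member. Of all tested probe sets 1.55% were called for the average, and 6 members (6.98%) had an unadjusted p under 0.05, while 9.98% of all tested did. For the difference between HAD1/LAD1 and HAD2/LAD2, 0 members were called against 4.13% of all tested, with 5 (5.81%) at an unadjusted p under 0.05 against 12.8% of all tested. For dependence on the pair, 0 members were called against 6.52% of all tested. There 4 members (4.65%) had an unadjusted p under 0.05, while 16.1% of all tested did, and the lowest adjusted p was 0.189, for Ndufv3 (1368567_at). Signs were not shared: 52 of 86 members were below 0 in HAD1/LAD1, 45 in HAD2/LAD2, 69 in P/NP, 32 in AA/ANA and 34 in sP/sNP. These counts moved with the scaling, to 58, 48, 81, 30 and 26 after each array was centred on its median. The members' median in P/NP was -0.021, and that of all tested probe sets was -0.00675.

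The core members fixed for reference stayed close to 0. The list held 16 genes, of which 15 had a tested probe set in the rule, 16 probe sets in all. Ndufs1, the large iron-sulfur subunit that carries electrons within complex I, ran from 11.73 to 12.19 in HAD1 and from 11.72 to 12.14 in LAD1. In HAD2 it ran from 11.88 to 12.38 and in LAD2 from 12 to 12.24. Sdha, the flavoprotein of complex II, ran from 12.7 to 13 in HAD1 and from 12.72 to 12.98 in LAD1. The ranges of the lines overlapped for both genes.

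Uqcrfs1, the Rieske iron-sulfur protein of complex III, ran from 11.55 to 11.93 in HAD2 and from 11.48 to 11.96 in LAD2. Cox4i1, the main regulatory subunit of complex IV, ran from 11.85 to 12.44 in HAD2 and from 11.78 to 12.64 in LAD2. Atp5f1b, the catalytic beta subunit of the ATP synthase, ran from 14.17 to 14.36 in HAD1 and from 14.1 to 14.41 in LAD1. Over the 16 reference probe sets the differences ran from -0.17 (Atp5if1, 1371229_at) to 0.13 (Cox6c) in HAD1/LAD1 and from -0.17 (Cox5a) to 0.07 (Cox6c) in HAD2/LAD2. They ran from -0.12 to 0.014 in P/NP, from -0.07 to 0.08 in AA/ANA and from -0.03 to 0.02 in sP/sNP. For Atp5if1 the low value came from a dim probe set. Its bright one (1369588_a_at) ran from 12.43 to 12.63 in HAD1 and from 12.31 to 12.71 in LAD1. The Cox5a probe set was dim too, with means of 7.57 in HAD2 and 7.74 in LAD2, while a probe set outside the rule that names Cox5a together with LOC100361008 (1370888_at) was at 13.49 in both lines.

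In every pair but HAD1/LAD1, where it was Ndufv3, the member with the largest absolute difference was Cox6a2 or Cox8b, tissue-restricted isoforms of complex IV. In sP/sNP it was Cox8b, at 0.11 ± 0.41 (SE), with line means of 6.16 and 6.05 under the testing level. The medians there, 5.89 in sP and 6.01 in sNP, went the opposite way. In AA/ANA the SE of Cox8b was 0.37, so its rank there and in sP/sNP goes with a wide spread. Cox6a2, the heart and skeletal muscle form of subunit 6a, ran from 6.66 to 6.92 in HAD2 (median 6.81) and from 6.85 to 7.31 in LAD2 (median 7.09). All 8 HAD2 arrays were below the LAD2 median, and 8 of 9 LAD2 arrays were above the highest HAD2 array. The difference of -0.30 ± 0.17 (SE) had an adjusted p of 0.427 in the fit of all arrays. With the pair fitted alone the SE was 0.06 and the adjusted p 0.00241, and with the HAD1, LAD1, HAD2 and LAD2 arrays alone the adjusted p was 0.0758. All of these HAD2 signals lay under the level of 7.02 set for testing, and those of LAD2 lay on both sides of it.

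In P the Cox6a2 signal ran from 6.21, on the array P 10, to 8.72 (median 8.41), and in NP from 7.99 to 9.07 (median 8.69). In AA it ran from 7.45 to 8.5 (median 8.02) and in ANA from 7.86 to 8.91 (median 8.3). The differences were -0.37 in P/NP, -0.30 in AA/ANA, -0.11 in sP/sNP and 0.04 in HAD1/LAD1, with adjusted p of 0.405 or more. Without P 10 the P/NP difference was -0.12, so that 1 array held most of it. The average over the 5 pairs was -0.21 and was not called; with the shared animal number as a replicate block in P/NP and sP/sNP it was called.

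**Figure D2:**
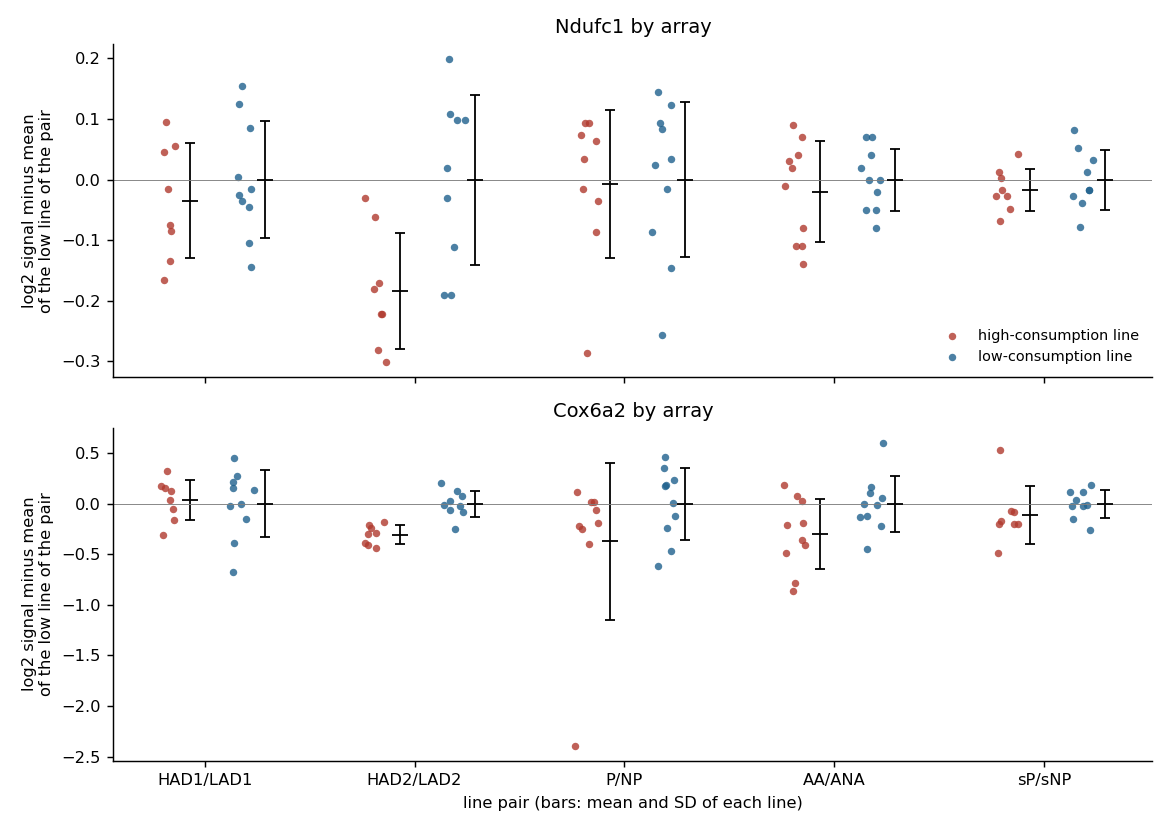
Log2 signal of Ndufc1 (top) and Cox6a2 (bottom) on each array, minus the mean of the low line of its pair, with high lines in red, low lines in blue, and the mean and SD of each line as bars. HAD2 lies below LAD2 for both genes, and the array P 10 stands far below the other P arrays for Cox6a2.

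Cox8b and Cox7a1, further muscle-type subunits, varied widely between animals of some lines. Line SDs ran from 0.218 (LAD2) to 1.45 (NP) for Cox8b and from 0.0781 (sP) to 0.395 (P) for Cox7a1. The within-line SD of Cox8b was 0.854, at percentile 99.7 of all tested probe sets, and it ran from 6.56 to 10.76 in P and from 7.23 to 11.25 in NP. In LAD1 it ran from 5.22 to 6.86, under the testing level, and the line means that reached that level were those of P, NP and ANA. Its differences were -0.36 in P/NP and -0.38 in AA/ANA with adjusted p of 0.79 or more. Cox7a1 ran from 7.76 to 8.3 in HAD1 and from 7.11 to 8.3 in LAD1, a difference of 0.16 with an adjusted p of 0.629.

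Within the lines the subunits rose and fell together from animal to animal. The correlations below are across arrays after each line's mean was removed, and they are descriptions, since the arrays of a pair share processing and dissection. The median correlation between 2 members was 0.57 over the 18 arrays of HAD1/LAD1, 0.55 over 17 of HAD2/LAD2, 0.787 over 19 of P/NP, 0.4 over 20 of AA/ANA and 0.495 over 17 of sP/sNP. Between tested probe sets at large (a regular sample of them in table order) it was between 0.0039 and 0.02. Within single complexes the median in HAD1/LAD1 ran from 0.341 (complex IV) to 0.759 (complex II), and between members of different complexes from 0.483 to 0.647. The order was not shared by all pairs: in AA/ANA complex II was lowest at 0.305 and complex IV highest at 0.542. Of the 86 members 84 had a positive median correlation with the other members in the mean of the 5 pairs, and 73 had one in every pair. For comparison, citric acid cycle and pyruvate dehydrogenase genes had medians from 0.376 to 0.909, and dopamine neuron markers from 0.479 to 0.868. Those of the assembly factors ran from 0.117 to 0.281.

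A few members did not move with the rest, and those with the lowest and highest values are named after they were seen. For Atp5me, the e subunit of the ATP synthase, the probe set 1387019_at had a mean median correlation of 0.698, while 1377191_at had -0.154, the lowest of the 86. The first ran from 12.4 to 12.85 in P and the second from 6.42 to 6.83, so the dim and the bright probe set of this gene disagreed. The line means of the dim one were under 7.02 in P, NP, AA, ANA, sP and sNP, and its medians by pair ran from -0.646 to 0.3. Cox6a2 came next at -0.0204, with values from -0.182 to -0.194 in HAD1/LAD1, AA/ANA and sP/sNP and 0.575 in P/NP, the pair with the array P 10. Ndufa4l2, a paralog of Ndufa4, was at 0.0483 and Ndufv3 (1368567_at) at 0.13. The members with the highest values were Ndufb7 (0.73), Ndufa3 (0.723) and Ndufab1 (0.718), all complex I subunits. Members with the NRF1 motif had a median of 0.635 and those without it 0.603, and for YY1 the values were 0.631 and 0.625.

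**Figure D3:**
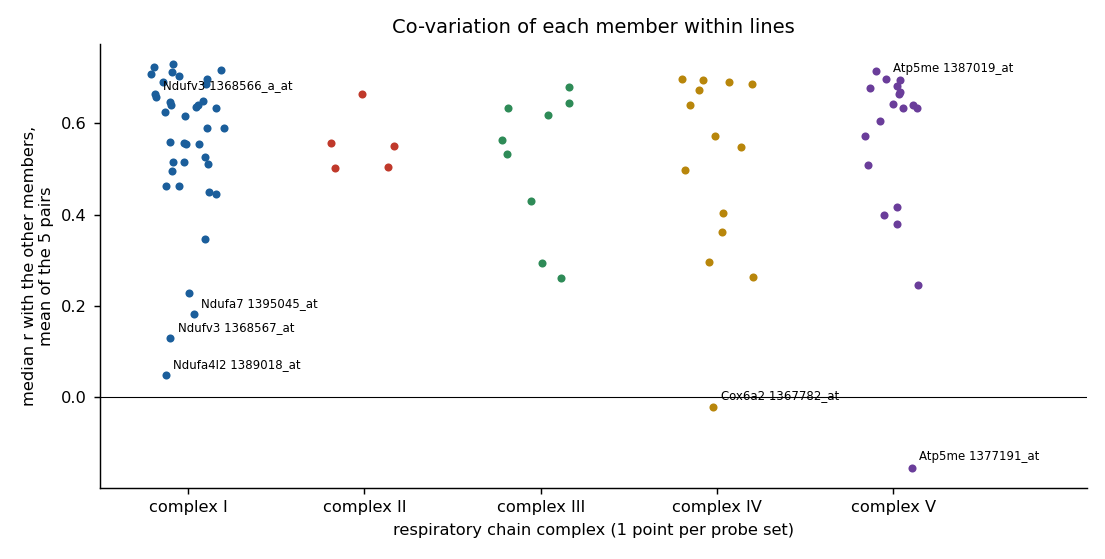
Median correlation of each tested member with the other members across arrays (line means removed), averaged over the 5 pairs, by complex, 1 point per probe set. Atp5me 1377191_at (-0.154) and Cox6a2 (-0.0204) are the points below 0, and the other probe set of Atp5me lies at 0.698.

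The common movement went with neuronal markers in most pairs, and with the assembly factors in every pair. The mean deviation of the members ran over 0.3 in HAD1, 0.357 in HAD2, 0.414 in P, 0.482 in NP and 0.167 in sP, on the log2 scale. Its Pearson correlation with the mean of 10 pan-neuronal markers (such as Snap25, Syt1 and the neurofilaments) was 0.808 in HAD1/LAD1 (n = 18), 0.749 in HAD2/LAD2 (n = 17), 0.945 in P/NP (n = 19), 0.686 in AA/ANA (n = 20) and 0.552 in sP/sNP (n = 17). Spearman's rho was 0.822, 0.784, 0.819, 0.517 and 0.284. Without the 2 arrays farthest from the median, r was 0.758, 0.666, 0.895, 0.37 and -0.069, so in AA/ANA and sP/sNP the relation rested on AA 9 with ANA 14 and on sNP 4 with sP 2. With the mean of the assembly factors r was 0.803, 0.864, 0.993, 0.846 and 0.821 in the same order of pairs. Without the 2 arrays farthest in that list it was 0.708, 0.819, 0.99, 0.753 and 0.662, so the relation was not particular to neuronal markers. In bulk tissue, fewer neurons and less mRNA per neuron cannot be told apart.

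The dopamine neuron markers did not rise with the subunits, with r of -0.042, -0.447, -0.274, -0.583 and -0.232 in the same order of pairs. Spearman's rho was -0.0918, -0.466, -0.612, -0.534 and -0.176. Without the 2 arrays farthest in that list (P 10 and NP 8 in P/NP), r was -0.0599, -0.371, -0.729, -0.61 and -0.385. With microglia markers r was -0.841 in P/NP and between -0.313 and 0.249 in the other pairs. In HAD2/LAD2 pan-neuronal markers had a median difference of -0.0276, with means per array from 11.22 to 12.1 in HAD2 and from 11.7 to 12.16 in LAD2. Of their 14 probe sets 1, of Map2, was called there, lower in HAD2, while the other Map2 probe set differed by 0.01. Of all tested probe sets 5.22% were called in that pair. Ndufc1 correlated with the neuronal markers at 0.319 in HAD2/LAD2 and 0.829 in HAD1/LAD1. Their part in the Ndufc1 difference was not tested. Cox8b correlated with the neuronal markers at 0.917 in P/NP and 0.772 in AA/ANA, and in the other pairs its line means, from 5.63 to 6.16, were under the testing level. In the order of pairs Cox6a2 had -0.462, -0.189, 0.572, -0.267 and -0.669.

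**Figure D4:**
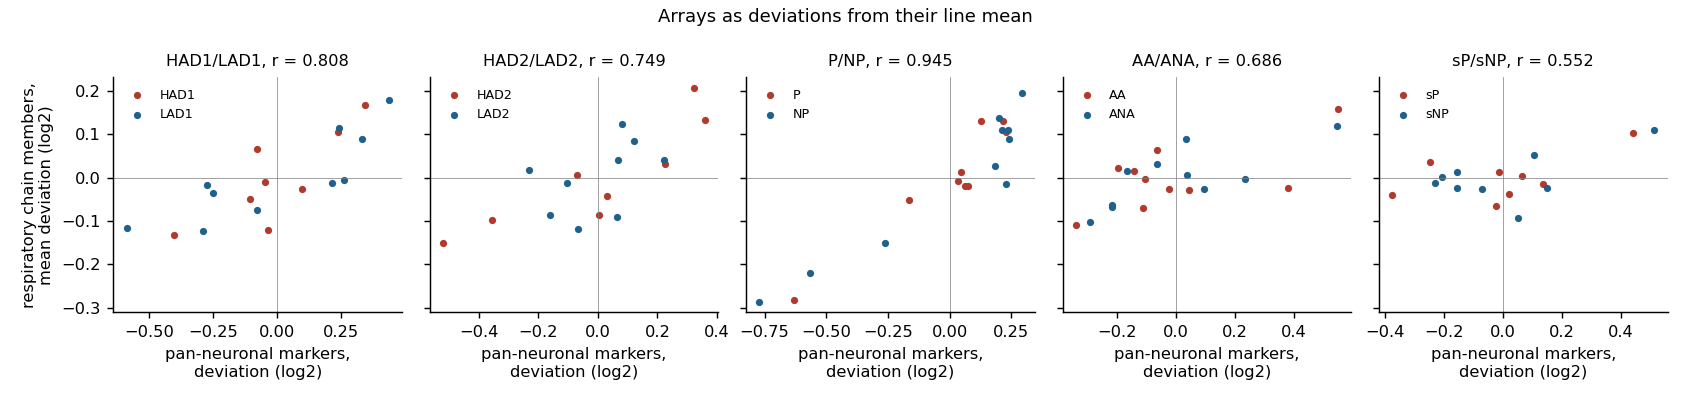
Mean deviation of the respiratory chain members from their line mean (vertical axis, log2) against that of the pan-neuronal markers (horizontal axis, log2, with its own scale in each panel), 1 point per array, high lines in red and low lines in blue. The points rise together in HAD1/LAD1, HAD2/LAD2 and P/NP, and in sP/sNP the relation rests on 2 arrays at the upper right.

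Genes that build, regulate or feed the chain were read from lists chosen beside the members. Of 52 probe sets for 41 assembly factor genes, 4 rose in HAD1 relative to LAD1 and none fell. In HAD2/LAD2, 1 rose and 2 fell, and in AA/ANA 1 rose. These counts stand beside 4.09%, 5.22% and 3.17% of all tested probe sets called in the same pairs. Ndufaf4, an assembly factor of complex I, rose in both pairs, by 0.31 ± 0.06 (SE, adjusted p 0.000387) in HAD1/LAD1 and by 0.48 ± 0.07 (SE, adjusted p 2.06e-08) in HAD2/LAD2, and differed by 0.0033 in P/NP. The test between the 2 pairs gave an adjusted p of 0.458. Sco1, a copper chaperone for complex IV, rose by 0.37 in HAD1/LAD1 and differed by 0.03 in HAD2/LAD2, with an adjusted p of 0.319 between the pairs. Cox15, which makes heme A and is named after its values were seen, rose by 0.18 in HAD1/LAD1 (adjusted p 0.155 between the pairs), while its other 2 probe sets differed by 0.19 and -0.15 without passing the test. Ttc19, a factor of complex III, fell by 0.25 in HAD2/LAD2 and differed by -0.17 in HAD1/LAD1 (adjusted p 0.0553), with an adjusted p of 0.832 between the pairs. Pet100, a complex IV factor also named after its values were seen, rose by 0.37 in AA/ANA from 1 of 2 probe sets, and the other differed by -0.08.

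Cox18, which inserts a mitochondrially made subunit of complex IV into the membrane, went opposite ways. It rose by 0.20 in HAD1/LAD1 (adjusted p 0.0271) and fell by 0.25 in HAD2/LAD2 (adjusted p 0.00275), and the 2 differences differed by 0.46 ± 0.08 (SE, limma adjusted p 5.8e-05). After quantile normalization the adjusted p in HAD1/LAD1 was 0.0593. Tfb1m, a methyltransferase of the mitochondrial ribosome, fell by 0.23 in HAD1/LAD1 and rose by 0.29 in HAD2/LAD2, with an adjusted p of 4.72e-07 for that difference. Both genes had 1 tested probe set.

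Among 21 probe sets of regulators of mitochondrial biogenesis, 1 rose and 1 fell in HAD1/LAD1 and 2 rose in HAD2/LAD2, and Tfb1m was the 1 that rose in AA/ANA (0.17, adjusted p 0.046). The shares of all tested probe sets called were 4.09% in HAD1/LAD1, 5.22% in HAD2/LAD2 and 3.17% in AA/ANA. Nrf1, whose protein binds the motif shown in Atp5me and Ndufs6, rose by 0.35 in HAD1/LAD1 (adjusted p 0.000696) and by 0.32 in HAD2/LAD2 (adjusted p 0.00225) at 1385617_at. Its other probe set (1382071_at) differed by -0.05 and 0.14 and was not called. The median difference of the 86 subunits in these pairs, whether or not the motif was found, was -0.0107 and -0.00132. A link between the Nrf1 signal and the subunits was not tested. Among 19 probe sets of mitochondrial dynamics and mitophagy, 1 rose and 1 fell in HAD1/LAD1, and likewise in HAD2/LAD2. Dnm1l, the fission GTPase, rose by 0.56 and 0.64 at 1369220_at, with 0.24 and 0.34 at its other probe set, which was not called. The transport adaptor Trak2 fell by 0.59 and 1.45 at 1370176_at, and these differed by 0.86 with an adjusted p of 0.0154, while its other probe set was at 0.23 and 0.14.

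No probe set of 17 for the citric acid cycle and pyruvate dehydrogenase, the source of electrons for complexes I and II, was called in any pair. The shares of all tested probe sets were 4.09% in HAD1/LAD1, 5.22% in HAD2/LAD2, 3.17% in AA/ANA and 0 in P/NP and sP/sNP. With so few probe sets, 0 calls cannot be told apart from these shares. In glycolysis, 1 of 18 probe sets fell in HAD1/LAD1, and 1 rose and 1 fell in HAD2/LAD2, beside the same shares. Hk1, the brain hexokinase, fell by 0.43 in HAD2/LAD2 at 1386929_at (adjusted p 0.00083; 0.187 with the pair fitted alone) and differed by -0.15 at its other probe set. The first differed by -0.15 in HAD1/LAD1, with an adjusted p of 0.328 between the pairs. Pfkm, a phosphofructokinase, had a different probe set called in each pair. At 1384632_at it fell by 0.30 in HAD1/LAD1 and differed by -0.04 in HAD2/LAD2, with an adjusted p of 0.196 between the pairs. At 1367864_at it rose by 0.20 in HAD2/LAD2 and differed by -0.04 in HAD1/LAD1, with an adjusted p of 0.0733 between them. Among carriers and channels, Etfb, which feeds electrons from fatty acid oxidation to the chain, rose by 0.24 in HAD2/LAD2 with an adjusted p of 0.046, and was at 0.23 with an adjusted p of 0.0514 in HAD1/LAD1.

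**Figure D5:**
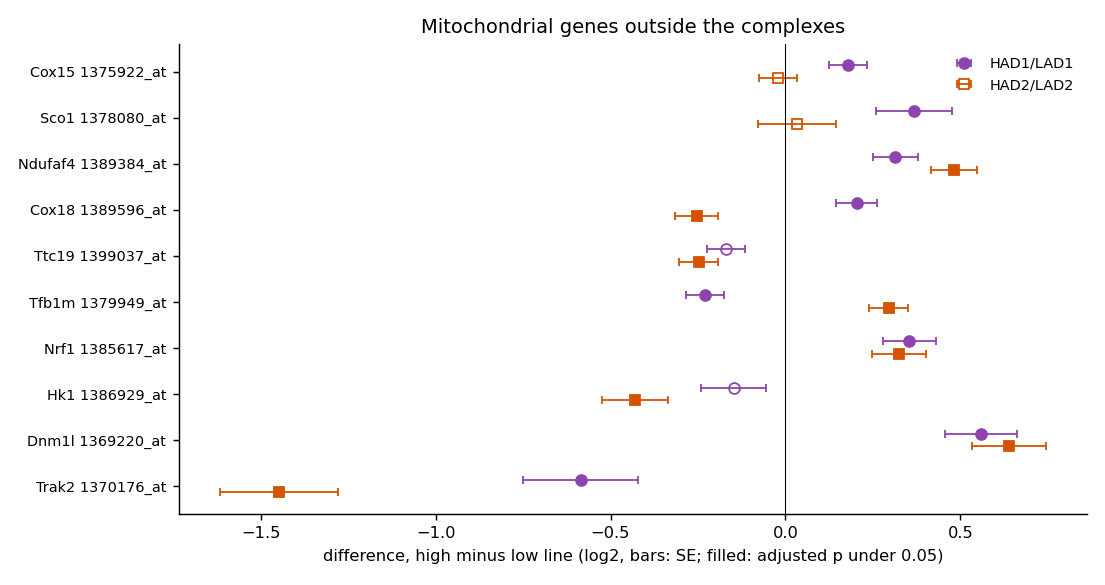
Difference between the high and the low line (log2, with SE bars) in HAD1/LAD1 (circles) and HAD2/LAD2 (squares) for 10 probe sets of genes that assemble, regulate or move mitochondria or feed them, filled where the adjusted p was under 0.05. Ndufaf4, Nrf1 and Dnm1l lie right of 0 in both pairs, and Cox18 and Tfb1m lie on opposite sides.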

How the data were processed

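The deposited values are log2 signals of 31099 Affymetrix probe sets that the authors made with RMA, per the submitters' processing notes. Its version, and which arrays were normalized together, is not given in the sources used here. Per the labels, 25 ng of RNA was amplified in 2 cycles. Array samples were grouped by the line in their titles, and nothing further in the labels describes replicates, so p-values measure the spread between these animals. The number of arrays limits the precision.

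All arrays entered 1 limma fit of 10 line means (81 residual degrees of freedom, prior 3.48), 2-sided, over 15163 probe sets. In simulated data of 15163 probe sets with 50 changed per size, the fit recovered 4% at a log2 size of 0.1, 56% at 0.25, 88% at 0.5 and 100% at 1 in HAD1/LAD1. In HAD2/LAD2 the shares were 2%, 54%, 82% and 100%. False calls were 7 of 131 in HAD1/LAD1 and 14 of 133 in HAD2/LAD2. The simulated noise was independent between probe sets, with the same spread in all lines. On the arrays the members moved together and line spreads differed, so these shares are a guide only. Members, gene lists and tests were chosen with earlier results of these data known. Members were named by a rule: all calls in either HAD/LAD pair, up to 8 in each other comparison, the largest difference per pair and complex, 16 reference genes, tissue-restricted complex IV isoforms, other probe sets of these, and up to 3 called genes per other list in the HAD/LAD pairs. Alternatives were other filters (none, 60th percentile of 8.58), quantile normalization, median centring, smaller fits, robust trend, array weights, other probe sets, the replicate block, the technical sets and left-out arrays. Versions were R 4.3.3, limma 3.58.1, Python 3.11.15 and matplotlib 3.10.9.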

Additional observations from a re-analysis of the deposited data

Results flagged for a closer look

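Single arrays stood far from the others of their line in 23 of 200 tests of named members and of the members' mean deviation (11.5%). These tests share arrays and the members move together, so the share cannot be set against the 1 in 20 of independent tests. P 10 alone gave 7 of the 23. The array P 10 was the lowest P array for Ndufa2 (12.42), Ndufc1 (12.47), Ndufv3 (1368566_a_at, 11.58), Cox6a2 (6.208), Cox6c (14.37) and Cox7a1 (7.993), and for the mean deviation of the members (-0.2834). AA 9 was high for Ndufs1 (12.69) and Sdha (12.87), as ANA 14 was for Ndufs1 (12.66). The array sP 2 was high for Sdha (12.85), Uqcrfs1 (12.98) and Cox8b (8.137), and sP 3 for Cox6a2 (8.592). HAD2 2 was high for Ndufb10 (10.64) and Cox7a1 (7.8), HAD2 9 for Ndufv3 (1368567_at, 7.091), LAD2 15 for Cox6c (13.95) and sNP 4 for Cox8b (7.104). LAD1 37 was low for Ndufv3 (1368567_at, 6.973), ANA 4 for Ndufv3 (1368566_a_at, 11.9), AA 19 for Cox4i1 (14.01) and sNP 1 for Cox7a1 (8.194).

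The differences of HAD1/LAD1 and HAD2/LAD2 differed for Cox18 by 0.4571, for Tfb1m by -0.5253 and for Trak2 (1370176_at) by 0.8619 on the log2 scale, with limma adjusted p of 5.8e-05, 4.72e-07 and 0.0154.

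A probe set outside the rule, whose annotation names both Ndufa10 and Ndufa10l1, was higher in HAD2 than in LAD2 by 0.7917 ± 0.13 (SE, limma adjusted p 5.8e-06). It ran from 13.03 to 13.48 in HAD2 and from 12 to 12.76 in LAD2, with no overlap.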

How the results depend on the processing

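The counts of called members moved under 5 alternatives. Quantile normalization gave 3 in HAD2/LAD2. Array weights gave 2 in HAD1/LAD1, 4 in HAD2/LAD2, 2 in P/NP, 1 in AA/ANA, 4 for the average, 1 for the difference between the HAD/LAD pairs and 4 for dependence on the pair, while all called probe sets rose to 1514 in P/NP and 3466 for dependence. The technical sets as terms gave 2 calls in HAD2/LAD2 and 1 in HAD1/LAD1, and leaving out AA 1, AA 19 and ANA 20 gave 1 in HAD1/LAD1 (Cox6c). Cox8b in P/NP passed only with array weights (adjusted p 0.042). The cause of these changes was not tested. Leaving out each array in turn gave 0 to 2 in HAD1/LAD1, 1 to 3 in HAD2/LAD2, 0 to 1 for the difference between them (HAD1 21 or LAD1 37 left out) and 0 to 1 for dependence (LAD1 37), and 0 for the other comparisons. Fitted alone, HAD2/LAD2 had 1 call, Cox6a2 in place of Ndufc1, and AA/ANA had 197 called probe sets of all tested in place of 481. With all non-control probe sets, an alternative chosen after seeing the data, 1042 were called for HAD1/LAD1, 1303 for HAD2/LAD2, 836 for AA/ANA, with the member counts as reported. No called named difference changed sign. Of the differences of named members that were not called, 13 changed sign under quantile normalization, 14 with array weights, 7 with centred arrays, 7 with the replicate block, 3 without AA 1, AA 19 and ANA 20 and 1 with the technical sets as terms.

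Equal animal numbers occur only in P/NP and sP/sNP. The deviations of same-numbered animals had r from -0.71 to 0.699 in P/NP (9 numbers, median 0.267, 6 above 0.1). In sP/sNP r ran from -0.372 to 0.289 (8 numbers, median -0.118, 1 above 0.1). So few numbers with so wide a range cannot decide whether equal numbers mark paired animals. With a replicate block there, 1 member (Cox6a2) was called for the average in place of 0, and 15 probe sets of all tested in P/NP in place of 0. Dim probe sets, close to or under the level for testing in some lines, limit Cox6a2, Cox8b and the second probe sets of Ndufv3, Atp5if1 and Atp5me.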

Other observations

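Complex IV subunits encoded by mitochondrial DNA, COX1 and COX2, lay outside the rule and differed by -0.03 to 0.05 between the lines of the 5 pairs, with no call. COX1 means were 15.09 in HAD2 and 15.08 in LAD2. In AA/ANA, the glycolysis genes Pfkl (0.40, limma adjusted p 0.0021) and Pgam1 (0.13, limma adjusted p 0.031) rose in the arrays labelled AA, as did 1 of 3 probe sets of Slc25a27, a neuronal uncoupling protein (0.22, limma adjusted p 0.0169). These 3 genes are named after their values were seen.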
